A study of Mus musculus with 12 samples.

Results

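Phospholipid scramblase genes Plscr1, Plscr2 and Plscr4 lie on the same stretch of mouse chromosome 9, with 1700057G04Rik between Plscr2 and Plscr4, and are followed by Plod2. Their accessibility was described here with 6 of the 63309 regions of the deposited ATAC-seq table, namely those that overlap one of the 4 gene bodies or the 10 kb on either side of it (GENCODE vM21, mm10). The genes were picked from the measured values, because several of their regions were more accessible in Hivep3-/- than in C57BL/6 iNKT1 cells. The comparison of the genotypes in iNKT1 cells is therefore given as a description, with no test. Of the 6 regions, 3 fall to Plscr1, 2 to Plscr2, 1 to Plscr4 and 2 to Plod2, and those of Plscr2 are also within the window of Plscr1.

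The study profiled open chromatin in thymic invariant natural killer T (iNKT) cells of C57BL/6 and Hivep3-/- mice, to ask what the loss of HIVEP3 does to regulatory elements. Each of the 3 subsets, iNKT1, iNKT2 and iNKT17, had 2 libraries per genotype, which gave 12 libraries in 6 groups. All came from untreated mice of 8 to 9 weeks. The C57BL/6 mice were wild type, and the Hivep3-/- mice lacked Hivep3 on the same C57BL/6 background. Cells were taken from pooled thymi, the sorted subsets were transposed together, and a second sort by ICOS and CD138 separated them again. The 3 subsets of a pool thus shared a transposition, and a p-value here measures only the spread between these libraries. CD122 and Izumo1r, used in the first sort, had lost their fluorescence by the second.

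Scramblases move phospholipids between the leaflets of a membrane, and Plscr1 is also known as an interferon-inducible gene with antiviral activity. PLOD2 is a lysyl hydroxylase of the endoplasmic reticulum that modifies collagen for cross-linking, and its gene is induced by hypoxia. The iNKT subsets differ in their cytokines, with interferon-gamma from iNKT1, interleukin-4 from iNKT2 and interleukin-17 from iNKT17 cells, HIVEP3 is a large zinc finger protein, and ATAC-seq reads out open chromatin through the sites where a transposase can place adapters.

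The 6 member regions of 500 bp span 292.8 kb. The Plscr1 start region, chr9:92250276-92250775, holds part of the untranslated first exon and of the first intron. The Plscr1 intron region, chr9:92265784-92266283, ends 12 bp before the start of a shorter Plscr1 transcript. The Plscr2 upstream region, chr9:92274376-92274875, is intergenic and ends 727 bp before the Plscr2 start. The Plscr4 start region, chr9:92457736-92458235, begins inside the first exon, with its untranslated sequence, and runs into the first intron. The Plod2 start region, chr9:92541986-92542485, covers the Plod2 start and its 5' untranslated sequence. The Plod2 downstream region, chr9:92542547-92543046, follows after a gap of 61 bp, holds the end of the first exon and part of the first intron, and overlaps the start of the antisense gene Gm38391. Adjoining regions at Plod2 are not independent of each other.

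Stretches of the regions on which the results turn are given 5' to 3' on the plus strand, from the genome GRCm38.p6 (mm10). Capitals mark matches to the motifs searched for on both strands. The stretches were chosen to show an upstream, an intronic and a promoter sequence of members that differed in how they varied across subsets, together with an intergenic region between Plscr2 and Plscr4. For the start regions, sequence outside the untranslated exons was taken.
Plscr1 intron, chr9:92265784-92266033: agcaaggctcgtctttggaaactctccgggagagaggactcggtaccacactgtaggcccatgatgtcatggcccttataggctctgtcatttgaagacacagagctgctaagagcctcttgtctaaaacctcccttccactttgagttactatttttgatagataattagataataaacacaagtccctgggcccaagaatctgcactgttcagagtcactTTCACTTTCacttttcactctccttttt
Plscr2 upstream, chr9:92274376-92274625: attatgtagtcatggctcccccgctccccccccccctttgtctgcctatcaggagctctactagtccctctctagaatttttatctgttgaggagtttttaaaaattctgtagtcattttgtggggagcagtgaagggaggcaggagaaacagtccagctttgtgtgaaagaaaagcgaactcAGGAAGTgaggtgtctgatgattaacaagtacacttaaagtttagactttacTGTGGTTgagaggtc
Plscr4 first intron, chr9:92457986-92458235: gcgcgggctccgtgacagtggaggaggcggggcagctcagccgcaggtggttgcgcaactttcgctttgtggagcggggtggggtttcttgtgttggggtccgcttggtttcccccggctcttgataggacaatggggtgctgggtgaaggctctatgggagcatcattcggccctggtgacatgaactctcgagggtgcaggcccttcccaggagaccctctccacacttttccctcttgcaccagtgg
Plod2 before the start, chr9:92541986-92542222: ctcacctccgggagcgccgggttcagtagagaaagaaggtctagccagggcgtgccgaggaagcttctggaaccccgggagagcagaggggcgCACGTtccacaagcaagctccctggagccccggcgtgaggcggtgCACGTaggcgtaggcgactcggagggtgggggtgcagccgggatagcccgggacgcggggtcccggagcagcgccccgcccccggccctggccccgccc
Plod2 downstream, chr9:92542797-92543046: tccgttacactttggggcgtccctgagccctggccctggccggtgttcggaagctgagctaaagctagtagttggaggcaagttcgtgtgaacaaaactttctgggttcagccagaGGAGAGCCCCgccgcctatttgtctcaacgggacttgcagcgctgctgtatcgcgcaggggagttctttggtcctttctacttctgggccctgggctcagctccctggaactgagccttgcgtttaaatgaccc
Second intergenic, chr9:92384426-92384725: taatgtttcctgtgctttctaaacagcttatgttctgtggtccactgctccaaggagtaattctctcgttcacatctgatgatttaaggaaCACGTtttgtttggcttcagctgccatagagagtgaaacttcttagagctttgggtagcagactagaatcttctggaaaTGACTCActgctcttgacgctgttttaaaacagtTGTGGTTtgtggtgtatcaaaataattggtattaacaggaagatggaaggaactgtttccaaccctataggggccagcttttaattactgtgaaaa

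The motifs were ACGTG (the core of hypoxia response elements), GAAANNGAA (IRF), TTCNNNGAA (STAT), AACCACA (Runt), AGGTGTGA (T-box), TGANTCA (bZIP), AGGAAGT (ETS) and a 10-letter NF-kB consensus. No match overlapped another in the stretches shown. The Plod2 start region held 3 matches to ACGTG, of which the stretch before the start shows a pair, and 3.72% of all regions held at least 3. ACGTG was found in 30.5% of all regions and in 1 of the 6 members. The Plod2 downstream region had the NF-kB match, found in 8.60% of all regions. The Plscr1 intron region had an IRF match, found in 15.3% of all regions. The Plscr2 upstream region had an ETS match and a pair of Runt matches, 1 of them in the stretch shown, and these motifs were found in 21.3% and 17.4% of all regions. STAT, T-box and bZIP letters, found in 13.4%, 2.91% and 15.9% of all regions, had a match in 0 of the 6 members. The Plscr4 and Plscr1 start regions matched no motif. The GC content of the members ranged from 46.4% at the Plscr2 upstream region to 71.8% at the Plod2 start, against a median of 50.0% over all regions. All 451 stretches of 50 bases within each member, the length to which the reads were trimmed, occurred once on the reference chromosomes. A match is a description of the letters and not of binding.

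Values are log2 insertions per kb after the authors' normalization, in the order of replicates 1 and 2. The limma tests took regions whose linear mean reached 5 in one or both of the groups compared. A region was called at 3-fold or more with an adjusted p (Benjamini-Hochberg) under 0.1. The libraries summed to 1915051 to 1919037 on the linear scale, which the normalization sets, so the depth is unknown. The number of distinct values up to the median, which grows with depth, was 139 and 170 in C57BL/6 and 227 and 491 in Hivep3-/- iNKT1 libraries. It was 219 and 159 against 91 and 118 in iNKT2, and 142 and 134 against 85 and 73 in iNKT17 libraries. By this measure depth was greater in Hivep3-/- than in C57BL/6 libraries of iNKT1 cells and smaller in those of the other subsets, and its part in the member values was not tested. Replicates correlated with r from 0.963 to 0.986 across regions.

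The subset labels were checked with promoter regions of marker genes, summed on the linear scale. The 6 iNKT1 markers, led by Il2rb, summed to 641 to 659 in iNKT1 and 232 to 260 in iNKT17 libraries. In iNKT2 libraries they summed to 289 and 276 in C57BL/6 and 218 and 239 in Hivep3-/- mice, so that they were lower in both Hivep3-/- libraries, and the part of this shift in the member values was not tested. The 6 iNKT17 markers, led by Sdc1 or Il1r1, summed to 273 to 298 in iNKT17 and 17.2 to 22.0 in the other libraries. The 7 iNKT2 markers, led by Gata3 or Zbtb16, summed to 402 to 465 in iNKT2 libraries and 295 to 337 in iNKT17 libraries. In iNKT1 cells their sum was 378 and 352 in C57BL/6 and 304 and 288 in Hivep3-/- libraries, lower in both of the latter. This shift was uneven over the list, with Il4 at a log2 mean of 5.13 against 4.33 and Gata3 at 6.63 against 6.59. Its part in the member values was not tested. The 4 of 5 general T cell markers with a promoter region, led by Cd3d or Zbtb16, summed to 325 to 413 in the other subsets. In iNKT1 cells they summed to 342 and 332 in C57BL/6 and 310 and 316 in Hivep3-/- libraries, lower in both of the latter. Of these markers Zbtb16, also counted with iNKT2, was at a log2 mean of 6.5 in C57BL/6 and 6.03 in Hivep3-/- iNKT1 cells. Cd3e (6.08 against 6.13), Cd3d (6.98 against 6.97) and Cd247 (5.7 against 5.69) were nearly level.

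Markers of other cells that a thymic sort could hold were summed in the same way where a promoter region was at hand, and the rest were not analysed here. The B cell markers Pax5 and Ebf1 summed to 14.3 and 15.6 in C57BL/6 and 19.7 and 18.4 in Hivep3-/- iNKT1 libraries. The myeloid markers Spi1 and Cebpa summed to 42.4 and 51.2 against 55.6 and 53.3. Of the stromal and epithelial markers 3 of 6, led by Col1a1, summed to 55.2 and 53.2 against 50.0 and 59.7. Of the double-positive thymocyte markers 1 of 5, Cd1d1, was used, at 51.9 and 50.1 against 49.1 and 49.4. It was at 78.9 and 70.6 against 91.4 and 81.7 in iNKT2 cells, higher in both Hivep3-/- libraries, and at 64.2 and 61.3 against 68.5 and 57.9 in iNKT17 cells. The B cell sum was 30.7 and 33.3 against 32.8 and 33.2 in iNKT2, and 26.9 and 29.7 against 32.7 and 36.2 in iNKT17 cells. The myeloid sum was 44.7 and 51.3 against 35.2 and 38.2 in iNKT2, and 43.8 and 47.0 against 33.1 and 38.6 in iNKT17 cells. The B cell sum was thus higher in both Hivep3-/- libraries of iNKT1 and iNKT17 cells, and the myeloid sum higher in those of iNKT1 and lower in those of iNKT2 and iNKT17 cells. In iNKT1 cells the log2 mean of Pax5 was 2.92 in C57BL/6 and 3.54 in Hivep3-/- libraries, while that of Ebf1 was 2.89 in both. In iNKT17 cells Cebpa was at 4.77 against 4.07, while Spi1 was at 4.18 against 4.24. The B cell shift in iNKT1 and the myeloid shift in iNKT17 cells thus rested on a single gene each. The part of these markers in the member values was not tested.

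The targeted gene gave no check of the genotype labels. Of 21 regions at Hivep3, the iNKT1 comparison tested 20, that of iNKT2 cells 18 and that of iNKT17 cells 12, and 0 of these were called by limma in each subset. The remaining regions were below the level for testing, and the Hivep3 promoter region was at 6.36 to 6.72 in all 12 libraries. The position of the deletion is not given in the sources used here.

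Plscr1 encodes the best studied scramblase of the family. Its start region was at 3.78 and 4.01 in C57BL/6 and 5.12 and 5.10 in Hivep3-/- iNKT1 libraries. It was at 4.41 and 4.52 against 4.90 and 4.68 in iNKT2, and in iNKT17 cells at 3.40 and 3.34 against 4.23 and 3.99. In every subset both Hivep3-/- libraries were above both C57BL/6 libraries, and iNKT17 cells had the lowest values of each genotype. In bulk samples, a larger share of cells with open chromatin and more insertions per cell cannot be told apart.

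In iNKT1 cells the Plscr1 start region was 1.22 higher on the log2 scale (SE 0.15, n = 2 libraries per genotype), which is 2.33-fold and the nearest outside the 3-fold threshold. In iNKT17 cells, which did not enter the choice of the genes, it rose by 0.74 (SE 0.15), with an adjusted p of 0.0267 in limma and below 3-fold. Over the alternatives this adjusted p ranged from 0.00525 to 0.131, and it was 0.131 without the first or 0.109 without the second C57BL/6 iNKT17 library, and 0.131 when only the iNKT17 libraries were fitted. In iNKT2 cells the change of 0.32 (SE 0.15) had an adjusted p of 0.213. The difference between the changes in iNKT2 and iNKT17 cells was -0.42 (SE 0.22), with an adjusted p of 0.401.

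The Plscr1 intron region was less accessible. It was at 2.13 and 2.30 in C57BL/6 and 3.14 and 2.94 in Hivep3-/- iNKT1 libraries. It was at 1.51 and 1.82 against 3.17 and 2.15 in iNKT2 cells, and at 0.49 and 0.10 against 1.59 and 1.35 in iNKT17 cells. Again both Hivep3-/- libraries were above both C57BL/6 libraries in every subset, although the Hivep3-/- iNKT2 libraries lay apart. The change was 0.83 (SE 0.35) in iNKT1 cells, the smallest of the 6 members there. In iNKT2 cells it was 1.00 (SE 0.35), with an adjusted p of 0.0912 in limma, and over the alternatives this ranged from 0.0305 to 0.329. The region passed the level filter only through the Hivep3-/- group (linear mean 6.73 against 3.19), so that it had to be high there to be tested, and without the filter the adjusted p was 0.0914. It was 0.329 without the first and 0.18 without the second C57BL/6 iNKT2 library and 0.134 with only the iNKT2 libraries. Without the first Hivep3-/- iNKT2 library the change was 0.49 and the region fell below the level for testing. It was below that level in iNKT17 cells, where the change was 1.17 (SE 0.35), and testing it there without the filter gave an adjusted p of 0.102.

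Plscr2 is a close relative of Plscr1. Its upstream region, the most accessible member on average with the Plscr1 start, was at 3.43 and 4.04 in C57BL/6 and 5.33 and 5.55 in Hivep3-/- iNKT1 libraries. It was at 4.47 and 4.66 against 4.98 and 5.53 in iNKT2 cells, and at 3.65 and 4.26 against 4.74 and 4.93 in iNKT17 cells. The genotypes did not overlap in any subset. In iNKT1 cells it was 1.71 higher (SE 0.24), or 3.26-fold, just inside the 3-fold threshold. The change was 1.400 without the first C57BL/6 iNKT1 library and 1.396 with a pseudocount of 5, both below 3-fold.

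Outside the cells that chose the genes, the Plscr2 upstream region rose by 0.69 (SE 0.24, adjusted p 0.0857 in limma) in iNKT2 and by 0.88 (SE 0.24, adjusted p 0.0779) in iNKT17 cells, both below 3-fold. Its adjusted p ranged from 0.0025 to 0.4 in iNKT2 and from 0.000989 to 0.478 in iNKT17 cells over the alternatives. The iNKT2 value was 0.314 and 0.185 without the first or second C57BL/6 library and 0.4 without the second Hivep3-/- library. The iNKT17 value was 0.478 without the first C57BL/6 library, and 0.127 and 0.267 without the first or second Hivep3-/- library. Without a trend of the variance it was 0.175 and 0.184. The change did not differ between iNKT2 and iNKT17 cells beyond its error (-0.19, SE 0.34, adjusted p 0.861).

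**Figure D1:**
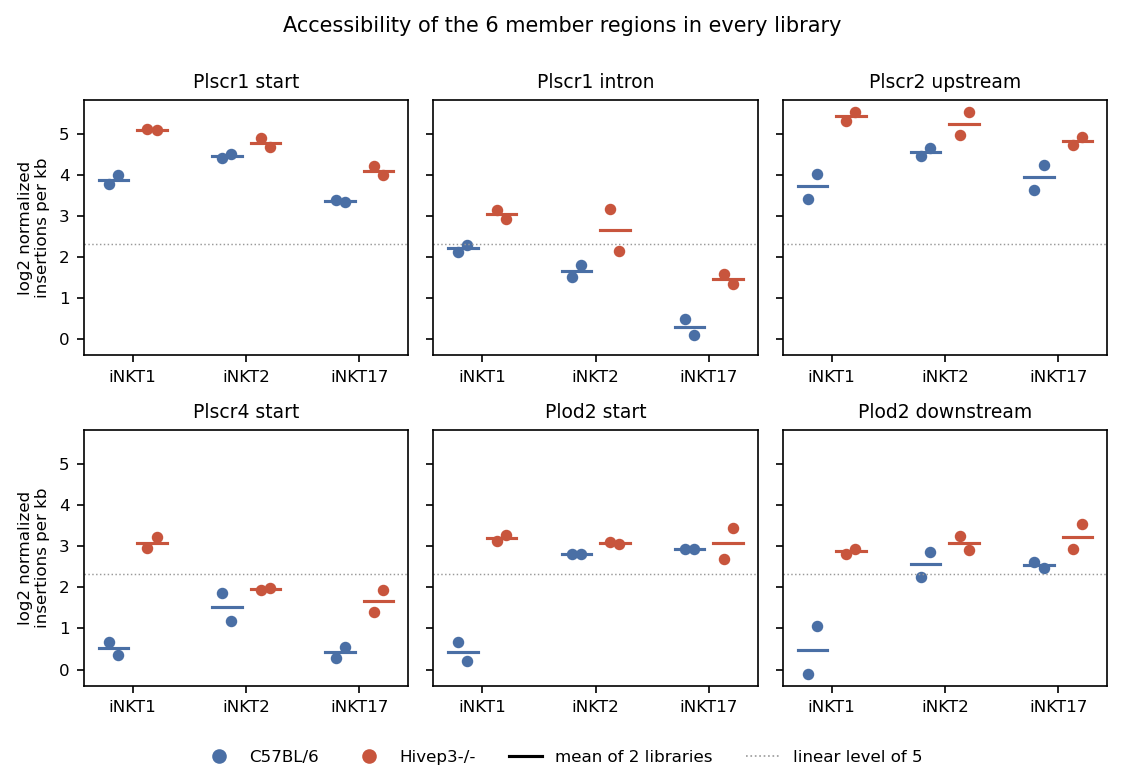
Accessibility of the 6 member regions (log2 normalized insertions per kb) in each of the 12 libraries, by subset, with C57BL/6 in blue and Hivep3-/- in red. Points are libraries, bars the mean of 2 libraries, and the dotted line a linear level of 5. In 5 of the 6 members both Hivep3-/- libraries were above both C57BL/6 libraries in every subset. The exception in iNKT17 cells, the Plod2 start region, was low in the C57BL/6 iNKT1 libraries, at 0.67 and 0.20, and at 2.70 or above elsewhere. How many of all regions separate the genotypes in this way was not counted, so nothing is read from the count of members. The iNKT1 values chose the genes.

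Plscr4 is another gene of the family on this stretch, after Plscr5, Plscr1 and Plscr2. Its start region was at 0.67 and 0.36 in C57BL/6 and 2.95 and 3.22 in Hivep3-/- iNKT1 libraries. It was at 1.86 and 1.18 against 1.93 and 2.00 in iNKT2 cells, and at 0.28 and 0.55 against 1.41 and 1.93 in iNKT17 cells. Among the 6 groups, Hivep3-/- iNKT1 cells alone reached a linear mean of 5, at 8.52, so the region was tested in no other comparison than the one that chose it. The change was 2.57 (SE 0.36), or 5.93-fold, in iNKT1, 0.44 (SE 0.36) in iNKT2 and 1.25 (SE 0.36) in iNKT17 cells. In iNKT2 cells it was 0.779 without the first and 0.098 without the second C57BL/6 library. Tested without the filter, the adjusted p in limma was 0.494 in iNKT2 and 0.0852 in iNKT17 cells. Both Hivep3-/- libraries were higher in each of the 3 subsets.

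Plod2, the lysyl hydroxylase gene, varied across the subsets in another way. Its start region was at 0.67 and 0.20 in C57BL/6 iNKT1 libraries and at 3.13 and 3.29 in Hivep3-/- iNKT1 libraries. The iNKT2 libraries were at 2.83 and 2.81 against 3.12 and 3.05, and the iNKT17 libraries at 2.94 and 2.94 against 2.70 and 3.46. The C57BL/6 iNKT1 libraries stood alone at the low end, and the means of the other groups lay between 2.82 and 3.21. The change in iNKT1 cells was 2.77 (SE 0.28), or 6.83-fold, the largest of the members. In C57BL/6 mice the iNKT1 mean lay at -2.38 relative to the iNKT2 mean and was lower still relative to the iNKT17 mean, whereas in Hivep3-/- mice the iNKT1 mean was 0.12 and 0.13 above them. These differences involve the libraries that chose the genes and have no test.

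In the subsets that did not enter the choice, the Plod2 start region did not change past the threshold. The change was 0.27 in iNKT2 (SE 0.28, 95% interval -0.33 to 0.87, adjusted p 0.61 in limma), with both Hivep3-/- libraries higher, and 0.14 in iNKT17 cells (SE 0.28, interval -0.46 to 0.74, adjusted p 0.878), where the genotypes overlapped. Without the second Hivep3-/- iNKT17 library the latter turned to -0.24. The intervals allow changes of up to 0.87 and 0.74, which are below 3-fold.

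The Plod2 downstream region followed the start region, with r = 0.91 over the 12 libraries. It was at -0.11 and 1.07 in C57BL/6 and 2.82 and 2.94 in Hivep3-/- iNKT1 libraries, a change of 2.40 (SE 0.37), or 5.27-fold. It was at 2.26 and 2.87 against 3.25 and 2.90 in iNKT2 cells, and at 2.62 and 2.49 against 2.95 and 3.54 in iNKT17 cells. Both Hivep3-/- libraries were the higher ones in each subset, and the C57BL/6 iNKT1 libraries were again below all others. The changes of 0.51 (SE 0.37, adjusted p 0.429 in limma) in iNKT2 and 0.69 (SE 0.37, adjusted p 0.399) in iNKT17 cells did not pass. Leaving out 1 library gave changes from 0.21 to 0.82 in iNKT2 and from 0.39 to 0.98 in iNKT17 cells.

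The members varied together to different degrees. Across the 12 libraries the Plscr1 start correlated with the Plscr4 start at r = 0.87, with the Plscr2 upstream region at 0.82 and with the Plod2 start at 0.34. The Plscr2 upstream region correlated with the Plod2 regions at 0.65 and 0.71 and the Plscr4 start with them at 0.58 and 0.52, while the Plscr1 intron region did so at -0.09 and -0.01. The Plscr1 intron region correlated with the Plscr1 start at 0.87, with the Plscr4 start at 0.65 and with the Plscr2 upstream region at 0.53. The Plscr2 upstream region and the Plscr4 start correlated at 0.88. These values have no p, share libraries and include those that chose the genes. The mean of the 6 members was 1.76 and 2.00 in C57BL/6 and 3.75 and 3.84 in Hivep3-/- iNKT1 libraries. It was 2.89 and 2.98 against 3.56 and 3.39 in iNKT2, and 2.23 and 2.28 against 2.94 and 3.20 in iNKT17 libraries, with no overlap of the genotypes in any subset.

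Counted over the members, 4 of 6 were past the thresholds in iNKT1 cells, all higher in Hivep3-/-, where 1.15% of 54145 tested regions were called and 0.890% were called higher. This comparison chose the genes, and nothing is read from the count. On chromosome 9, 41 of 3208 tested regions (1.28%) were called higher in iNKT1 cells. The median change was 2.05 over the members and -0.02 over all tested regions. A pseudocount of 5 left 0 of 6 past the thresholds and a median of 1.03, and one of 1 gave a median of 1.70.

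In iNKT2 cells, 5 of the 6 members were tested and 0 were called by limma, against 1.68% of 55049 tested regions and 0.474% called higher. At any fold, 2 of the 5 rose, the Plscr1 intron and Plscr2 upstream regions, where 8.26% of all tested regions did. The Plscr1 intron region was among the tested ones only through the Hivep3-/- group in which it was high. An unadjusted p under 0.05 was found for 2 of the 5 members and for 13911 of the 55049 regions. In iNKT17 cells, 4 were tested and 0 were called, against 0.271% of 54311 tested regions and 0.133% called higher. At any fold 2 of the 4 rose, the Plscr1 start and Plscr2 upstream regions, against 2.66% of all, and an unadjusted p under 0.05 was found for 2 of the 4 and for 8570 of the 54311 regions. Counting at any fold was chosen after the values were seen. All tested members had a positive change in either subset, with medians of 0.51 and 0.715, while the medians of all tested regions were -0.0011 and -0.0115. These shares rest on few regions of neighbouring genes, and a region that passed the level filter through a single group had to differ.

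**Figure D2:**
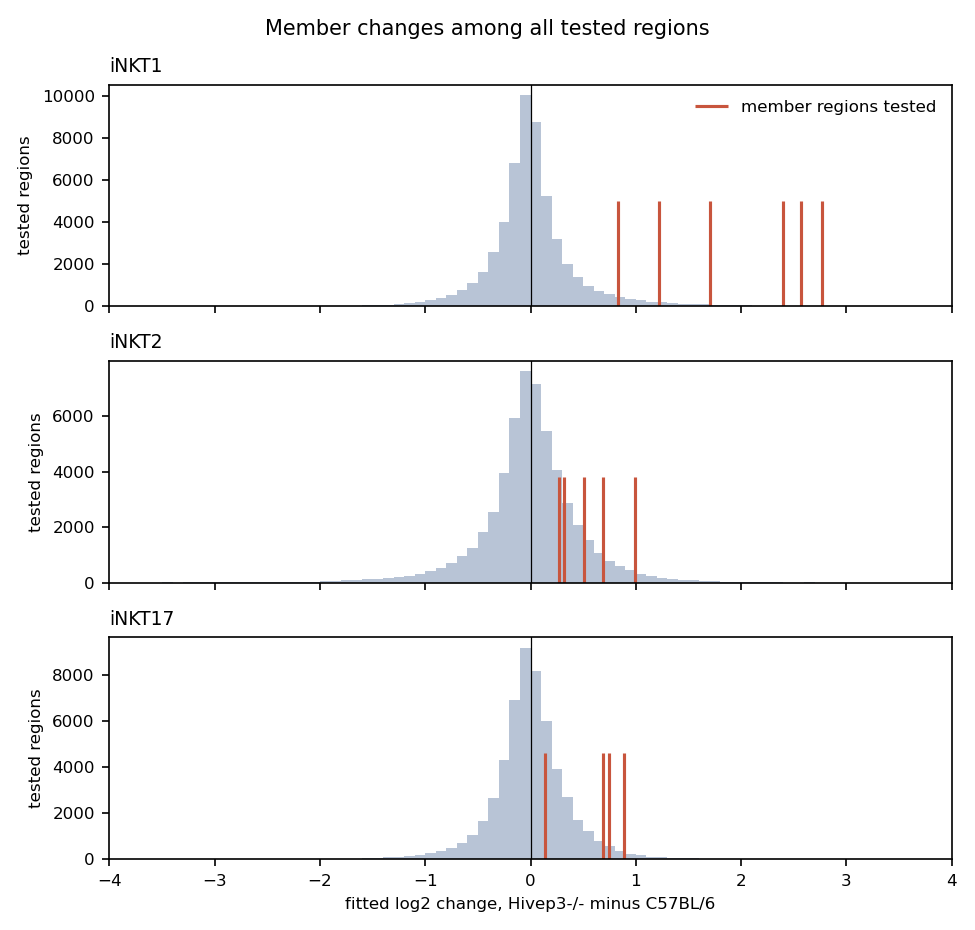
Fitted log2 changes (Hivep3-/- minus C57BL/6) of all tested regions in each subset as histograms with bins of 0.1, with the tested members as red lines. The members lie from 0.83 to 2.77 in iNKT1 cells, whose values chose them, from 0.27 to 1.00 in iNKT2 and from 0.14 to 0.88 in iNKT17 cells.

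The difference between the changes in iNKT2 and iNKT17 cells was tested for 5 members. It passed for 0 of them in limma, where 1.02% of 60297 tested regions were called. An unadjusted p under 0.05 was found for 0 of the 5 members and for 8968 of the 60297 regions. Its values ranged from -0.42 at the Plscr1 start to 0.13 at the Plod2 start. The changes in iNKT1 cells exceeded those in iNKT2 cells by 2.50 at the Plod2 start, 1.885 at the Plod2 downstream region and 2.13 at the Plscr4 start. At the Plscr2 upstream region the excess was 1.01, at the Plscr1 start 0.90, and at the Plscr1 intron region it was -0.17. These excesses were not tested, since they contain the comparison that chose the genes.

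The subsets themselves differed at Plscr1. In C57BL/6 mice its start region was higher in iNKT2 than in iNKT17 cells by 1.10 (SE 0.15, adjusted p 5.71e-05 in limma), or 2.14-fold, and in Hivep3-/- mice by 0.68 (SE 0.15, adjusted p 0.00254), or 1.60-fold, with both iNKT2 libraries above both iNKT17 libraries in either genotype. Over the alternatives the adjusted p stayed at or below 0.00121 in C57BL/6 and 0.0275 in Hivep3-/- mice. The Plscr1 intron region was higher in Hivep3-/- iNKT2 cells by 1.19 (SE 0.35, adjusted p 0.013, from 0.00252 to 0.0628 over the alternatives). It passed the level filter only through those cells (linear mean 6.73 against 2.77 in iNKT17 cells), with an adjusted p of 0.0133 without the filter, and fell below the level for testing without the first Hivep3-/- iNKT2 library. It was below the level for testing in C57BL/6 mice, where the difference was 1.37 (SE 0.35, adjusted p 0.0059 without the filter). The Plscr4 start region was below that level in both genotypes, with differences of 1.11 (SE 0.36, adjusted p 0.0215 without the filter) in C57BL/6 and 0.29 (SE 0.36, adjusted p 0.537) in Hivep3-/- mice.

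The Plscr2 upstream region was higher in C57BL/6 iNKT2 than in iNKT17 cells by 0.61 (SE 0.24, adjusted p 0.0524 in limma, from 0.00116 to 0.4 over the alternatives). The adjusted p was 0.205 without the second iNKT2 library, 0.4 without the first iNKT17 library and 0.114 without a trend of the variance. In Hivep3-/- mice the difference was 0.42 (SE 0.24, adjusted p 0.172, from 0.0168 to 0.691 over the alternatives). It passed with the pool as a replicate block (adjusted p 0.0168) and without the first Hivep3-/- iNKT2 library (adjusted p 0.0655). The Plod2 start region was nearly level between these subsets, with differences of -0.12 (interval -0.72 to 0.48, adjusted p 0.754) in C57BL/6 and 0.01 (interval -0.59 to 0.61, adjusted p 0.988) in Hivep3-/- mice.

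Of the members, 4 were tested between iNKT2 and iNKT17 cells in C57BL/6 mice and 0 were called by limma, against 16.2% of all tested regions. At any fold 2 of 4 were higher in iNKT2 cells, against 29.0%, and 2 of 4 had an unadjusted p under 0.05, as did 30560 of 58866 tested regions. In Hivep3-/- mice 5 were tested and 0 called, against 15.6%, and 2 of 5 were higher in iNKT2 cells at any fold, against 29.7%. An unadjusted p under 0.05 was found for 2 of 5 members and 31141 of 58563 tested regions. The Plscr1 intron region, 1 of these members, was tested only through the group in which it was high.

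Within 1 Mb of the members the table held 10 regions, of which 4 were outside the 10 kb windows, and none of the 4 lay after Plod2. The nearest before the members, chr9:92229016-92229515, ended 20.2 kb before the Plscr1 start. It was at 1.49 and 0.99 in C57BL/6 and 2.64 and 2.70 in Hivep3-/- iNKT1 libraries. It was at 3.23 and 3.78 against 4.55 and 4.47 in iNKT2 cells, and at 3.17 and 3.28 against 2.95 and 4.30 in iNKT17 cells, where the genotypes overlapped. In iNKT2 cells it rose by 1.00 (SE 0.35, adjusted p 0.0888 in limma, from 0.0187 to 0.393 over the alternatives). Leaving out any single iNKT2 library gave an adjusted p of 0.127 to 0.393, the highest without the first C57BL/6 library.

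The next region outwards, chr9:92217829-92218328, is 24.9 kb from the start of Plscr5, another scramblase gene. It was at -0.94 and -1.01 in C57BL/6 and 0.40 and 0.88 in Hivep3-/- iNKT1 libraries. It was at 2.59 and 2.41 against 3.33 and 3.37 in iNKT2 cells, and at 1.18 and 0.74 against 0.57 and 1.11 in iNKT17 cells. The highest values were those of iNKT2 cells. In Hivep3-/- mice it was higher in iNKT2 than in iNKT17 cells by 2.51 (SE 0.37, adjusted p 9.86e-05 in limma), or 5.69-fold, and in C57BL/6 mice by 1.55 (SE 0.37, adjusted p 0.00379), or 2.92-fold, with no overlap in either. It passed the level filter only through iNKT2 cells, and without the filter the adjusted p was 0.000105 and 0.00392. Of its 50-base stretches, 27 of 451 (6.0%) occurred more than once on the reference chromosomes.

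The nearest region after the members, chr9:94440639-94441138, lies 1898 kb beyond the last of them. It was at 3.41 and 3.11 in C57BL/6 and 2.94 and 2.61 in Hivep3-/- iNKT1 libraries, a change of -0.48 (SE 0.19), unlike any member. It was at 2.17 and 2.195 against 3.50 and 3.44 in iNKT2 cells, and at 4.05 and 4.07 against 3.999 and 4.06 in iNKT17 cells, where the genotypes overlapped. In iNKT2 cells it rose by 1.29 (SE 0.19, adjusted p 0.00138 in limma, from 0.000234 to 0.0133 over the alternatives), below 3-fold and in both libraries. It passed the level filter there only through the Hivep3-/- group, and without the filter the adjusted p was 0.00145. Between the C57BL/6 subsets it was lower in iNKT2 than in iNKT17 cells (-1.88, SE 0.19, adjusted p 4.49e-06, at most 0.000127 over the alternatives), past 3-fold. In that comparison it passed the level filter only through iNKT17 cells, in which it was high. The change between the genotypes in iNKT17 cells was -0.03 (SE 0.19, adjusted p 0.974 in limma). The difference of these changes was 1.32 (SE 0.28, adjusted p 0.0362, from 0.0126 to 0.106). Its adjusted p was 0.103 and 0.102 without the first or second C57BL/6 iNKT2 library and 0.106 without the first C57BL/6 iNKT17 library.

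A pair of intergenic regions between Plscr2 and Plscr4, beyond the gene 1700057G04Rik, was singled out after its values were seen. The first intergenic region, chr9:92374736-92375235, lies 82.1 kb before the Plscr4 start. It was at 1.20 and 2.10 in C57BL/6 and 4.33 and 4.31 in Hivep3-/- iNKT1 libraries, 2.67 higher (SE 0.48), or 6.38-fold. It was at 0.27 and 0.76 against 0.20 and 0.55 in iNKT2 cells, and between -1.52 and -0.55 in iNKT17 cells. The genotypes overlapped in both of these subsets, in which the region stayed below the level for testing.

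The second intergenic region, chr9:92384326-92384825, whose sequence is given above, lies 72.5 kb before the Plscr4 start. It was at 1.43 and 1.66 in C57BL/6 and 4.18 and 4.07 in Hivep3-/- iNKT1 libraries, 2.58 higher (SE 0.45), or 5.96-fold. The iNKT2 libraries were at 1.60 and 2.07 against 0.37 and 0.35, so that the Hivep3-/- libraries were the lower ones, with a change of -1.47 (SE 0.45). In iNKT17 cells it was at -2.41 and -1.15 against -0.10 and -0.10. Levels in iNKT2 and iNKT17 cells were below the level for testing. In Hivep3-/- iNKT1 cells these intergenic regions reached means of 4.32 and 4.12, above the Plscr4 and Plod2 regions.

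**Figure D3:**
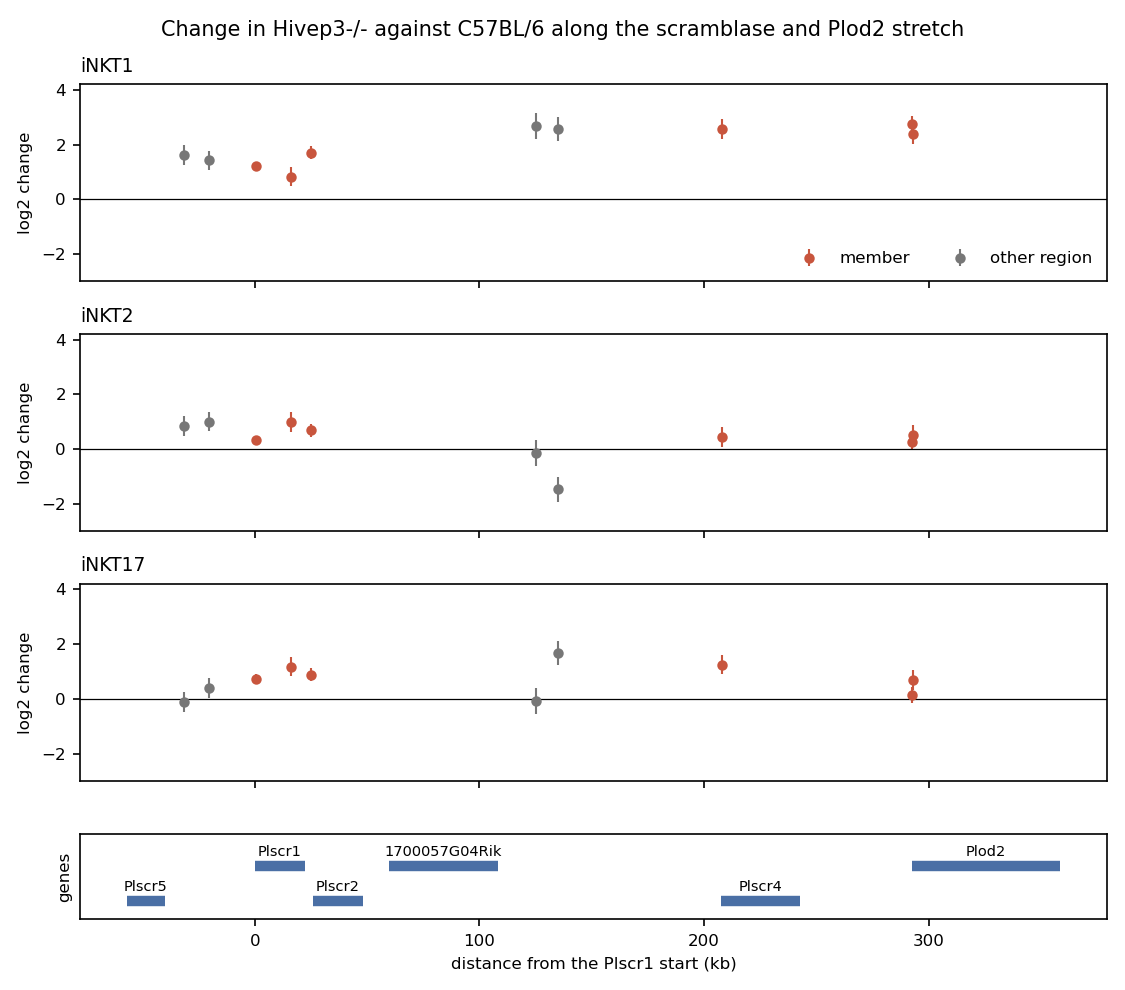
Fitted log2 change (Hivep3-/- minus C57BL/6, with SE) of the 10 regions by their distance from the Plscr1 start in kb, with members in red, other regions in grey and gene bodies below. In iNKT1 cells all 10 changes are positive, from 0.83 to 2.77, and in iNKT2 cells the second intergenic region lies at -1.47.

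**Figure D4:**
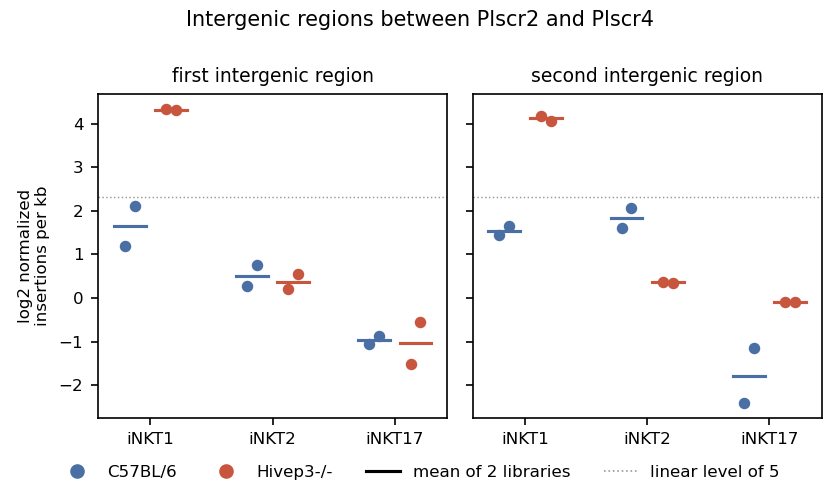
Accessibility of the intergenic regions between Plscr2 and Plscr4 (log2 normalized insertions per kb) in each library, by subset and genotype, with bars at the mean of 2 libraries. The Hivep3-/- iNKT1 libraries, at 4.07 to 4.33, are the only ones above the dotted line at a linear level of 5.

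Scramblases and flippases move phospholipids across membranes, and 21 of 22 further genes for them had regions at their loci. In iNKT1 cells 1 of 149 tested regions was called higher, at the autophagy scramblase gene Vmp1 (0.51 and 1.28 against 2.55 and 2.62), and 1 lower, at the flippase gene Atp8a1 (3.13 and 2.78 against 0.99 and 1.58), where 0.890% of all tested regions were called higher and 1.15% in either direction. Both passed the level filter only through the group in which they were high, and as iNKT1 values they are a description. In iNKT17 cells 0 of 147 were called by limma, against 0.271% of all tested regions. The medians of the list were -0.03 in iNKT1 and -0.03 in iNKT17 cells.

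Among 15 collagen modifying genes, the family to which Plod2 belongs by function, 12 had regions at their loci. Over all tested regions 0.890%, 0.474% and 0.133% were called higher in iNKT1, iNKT2 and iNKT17 cells. In this list a single region was called higher in each subset, of 46, 47 and 46 tested. It was the same one, chr10:59381538-59382037 at P4ha1, which encodes a subunit of prolyl 4-hydroxylase. It was at 1.20 and 1.74 against 3.70 and 2.89 in iNKT1, at 0.27 and 0.06 against 3.23 and 2.15 in iNKT2, and at 1.23 and 1.54 against 3.94 and 2.87 in iNKT17 cells. Both Hivep3-/- libraries were above both C57BL/6 libraries in all 3 subsets. The change was 2.53 (SE 0.44, adjusted p 0.00302 in limma, up to 0.0298 over the alternatives) in iNKT2 and 2.02 (SE 0.44, adjusted p 0.0314, from 0.00424 to 0.213) in iNKT17 cells. It passed the level filter only through the Hivep3-/- groups, and without the filter the adjusted p was 0.00313 and 0.0296. Without the first Hivep3-/- iNKT2 library the region fell below the level for testing in iNKT2 cells. In iNKT17 cells the adjusted p was 0.213 without the first C57BL/6 and 0.148 without the first Hivep3-/- library. The medians of the list were 0.01, -0.07 and -0.11.

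Of 16 interferon-inducible genes, a class that includes Plscr1, 15 had regions. In iNKT1 cells 0 of 56 regions passed in either direction, against 1.15% of all tested regions. In iNKT17 cells 0 of 50 passed in limma, against 0.271%. Over all regions tested in iNKT2 cells, 1.68% were called in either direction, and 662 of 55049 were called lower. In iNKT2 cells 1 of 54 fell, at the exonuclease gene Isg20 (4.71 and 4.37 against 2.20 and 2.45, change -2.22, SE 0.53, adjusted p 0.0181, from 9.95e-06 to 0.12 over the alternatives). The adjusted p was 0.12 without the first C57BL/6 iNKT2 library. The medians were -0.11, 0.08 and 0.05.

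All 10 hypoxia-inducible genes, a class that includes Plod2, had regions. In iNKT1 and in iNKT2 cells 1 region was called higher, of 45 and 47 tested, where 0.890% and 0.474% of all tested regions were. It was the same region in both, at Egln3, which encodes an oxygen-sensing prolyl hydroxylase (chr12:54198250-54198749). It was at -1.72 and -0.67 against 3.23 and 2.99 in iNKT1, and at 1.69 and 1.29 against 3.28 and 3.33 in iNKT2 cells. In iNKT2 cells it rose by 1.82 (SE 0.31, adjusted p 0.003 in limma, up to 0.0352 over the alternatives), with both libraries higher. It passed the level filter only through the Hivep3-/- group, and without the filter the adjusted p was 0.00311. In iNKT17 cells 0 of 45 were called by limma, against 0.271% of all tested regions. The medians were 0.03, 0.01 and 0.10.

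Promoter regions of 12929 genes elsewhere were ranked by their correlation with the mean of the 6 members over the 12 libraries, as a description. The closest were Slc35f5 (r = 0.94, Spearman rho 0.94), Itga4 (0.93, rho 0.88), Il15 (0.91, rho 0.87), Acvr2b (0.87, rho 0.77) and Tcp11l1 (0.87, rho 0.88). Itga4, an integrin subunit gene, was at 3.72 and 3.78 against 5.36 and 5.43 in iNKT1 cells. It was at 4.74 and 4.45 against 5.13 and 5.22 in iNKT2, and at 3.50 and 3.46 against 4.32 and 4.325 in iNKT17 cells. These genes were picked for their correlation with the members, iNKT1 libraries included, so their likeness shows nothing further. In iNKT2 cells the others did not all follow. Acvr2b was at 3.31 and 2.89 against 2.47 and 2.85, lower in both Hivep3-/- libraries, and Tcp11l1 was at 2.35 and 2.94 against 2.79 and 2.74, where the genotypes overlapped.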

How the data were processed

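ATAC-seq was performed on 12 libraries of thymic iNKT subsets. According to the methods of the study and the submitters' notes, reads were trimmed to 50 bases (Trimmomatic 0.39), mapped to mm10, and transposase insertions were counted in merged peaks of 500 bp. The deposited values are log2 insertions per kb that the authors normalized with voom. Of the value columns, 0 were unmapped. Members and gene lists were chosen with earlier results of these data known.

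Group means were fitted to all 12 libraries with limma 3.58.1 in R 4.3.3, with a trend of the variance (6 residual and 7.17 prior degrees of freedom). Adjusted p-values cover every tested region of a comparison. As a check of the code, the fit was also run on simulated data. Changes past 3-fold were set there, only in regions whose mean over all libraries reached a linear level of 5. The simulation therefore does not cover smaller changes or regions of lower level. Regions were annotated and sequences read with Python 3.11.15, pandas 2.3.3, numpy 2.4.6, pysam 0.24.0 and samtools 1.23.1, and drawn with matplotlib 3.10.9. Regions named were members within 1000 bp of a start, changed 3-fold in iNKT1 cells or called elsewhere, the nearest on either side of the members, and the 5 closest promoters by correlation. Further regions were picked with their values already known. The iNKT2 result of the scramblase and flippase list is not reported here.

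Sample titles number a mouse shared by the 3 subsets of a genotype, while the methods speak of pooled thymi, and subset comparisons were also fitted with that pool as a replicate block. Deviations of replicates correlated with 0.120 to 0.167 between subsets of a genotype, 0.113 to 0.171 between genotypes of a subset, and 0.091 to 0.174 otherwise.

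Alternatives were no filter, a filter on the mean of all 12 libraries, added pseudocounts (1 or 5), renewed quantile normalization, only the compared groups, no trend, gene bodies alone or with 50 kb, a 2-fold threshold, each library left out, and, chosen after seeing the data, no fold threshold.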

Additional observations from a re-analysis of the deposited data

Results flagged for a closer look

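The second intergenic region between Plscr2 and Plscr4 moved in opposite directions in the subsets. Both Hivep3-/- libraries were above both C57BL/6 libraries in iNKT1 and in iNKT17 cells and below both in iNKT2 cells. The change in iNKT1 cells exceeded that in iNKT2 cells by 4.05 on the log2 scale, and the change in iNKT2 minus that in iNKT17 cells was -3.16. These differences were not tested, since iNKT1 values chose the genes and the region was below the level for testing in the other subsets, with linear means of at most 3.62. In iNKT17 cells both Hivep3-/- libraries had the same value of -0.10.

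The nearest region after the members, far outside them, also moved in opposite directions. Both Hivep3-/- libraries were below both C57BL/6 libraries in iNKT1 cells and above both in iNKT2 cells. The change in iNKT1 minus that in iNKT2 cells was -1.77, a difference that was not tested.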

How the results depend on the processing

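The alternatives gave 686 recomputed values, of which 10 changed sign. The count in iNKT1 cells was 0 with a pseudocount of 5, 3 with the filter on all libraries and with gene bodies alone, 5 with 2-fold and with no fold threshold, and 3 to 4 when a library was left out. With no fold threshold, chosen after seeing the data, the counts were 2 in iNKT2, 2 in iNKT17, and 2 in each genotype between iNKT2 and iNKT17 cells. With 2-fold they were 1 in each genotype between these subsets, and in Hivep3-/- mice 1 with 50 kb and 0 to 1 when a library was left out.

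The median change in iNKT1 cells was 1.70 and 1.03 with pseudocounts of 1 and 5, 2.40 with gene bodies alone, 1.71 with 50 kb, and 1.60 to 2.21 when a library was left out. In iNKT2 cells it was 0.29 with a pseudocount of 5, 0.69 with 50 kb, and 0.27 to 0.78 when a library was left out. In iNKT17 cells it was 0.48 with a pseudocount of 5. The pseudocount shrinks changes of low values by its construction. The other causes were not tested.

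Sign changes were found at the Plod2 regions and at the nearest region after them (-0.0572 to 0.0068 in iNKT17 cells when a library was left out). Leaving out a library gave -0.24 to 0.52 at the start in iNKT17 cells. Between iNKT2 and iNKT17 cells it gave -0.38 to 0.39 at the start in Hivep3-/- mice, and -0.30 to 0.32 in C57BL/6 and -0.46 to 0.13 in Hivep3-/- mice downstream. Renewed quantile normalization gave -3e-04 downstream in C57BL/6 mice, and a pseudocount of 5 gave -0.0076 at the start in Hivep3-/- mice.

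With the replicate number or the pool as a block, the counts stayed at 4 in iNKT1 cells and 0 in the other comparisons. The block brought 1 adjusted p under 0.1, that of the Plscr2 upstream region between Hivep3-/- iNKT2 and iNKT17 cells (0.0168 in limma). That difference was below 3-fold and was not a call. Where a library was left out, the lone library was assumed to vary like the other groups. With 2 libraries a group and no insertion counts, the depth behind low values is unknown.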
